A study of Rattus norvegicus with 10 samples.

Results

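DNA replication genes were followed in hearts of rat fetuses of embryonic day 19.5 (E19.5), as a list of 41 genes chosen by name for their part in copying DNA: origin recognition and licensing, the replicative helicase, the polymerases and primase, the sliding clamp and its loader, the proteins that bind and join single strands, and the supply of deoxynucleotides. All 41 were among the 18025 genes with deposited values and among the 14542 genes tested. The hearts were wild-type and came from Sprague-Dawley pregnancies of 2 groups with 5 libraries each. In the hyperglycemia (HG) group the dams, aged 3 months, had been injected intraperitoneally with streptozotocin, a toxin of the insulin-producing beta cells, on 3 days in a row, and had a non-fasting blood glucose above 16 mM afterwards. In the control (CON) group the dams received the citric acid buffer without the drug, and dams of both groups had been mated with normoglycemic males. The drug and the glucose it raised both differ between the groups and cannot be told apart. The labels name heart tissue, whereas one passage of the study speaks of isolated cardiomyocytes and another of pooled RNA. The labels do not say whether the libraries of a group come from separate dams, so that p-values measure only the spread between these libraries, which may be technical.

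A cell that is about to divide loads pairs of MCM helicases onto origins marked by the origin recognition complex, with the help of Cdc6 and Cdt1. On entry into S phase the helicase is completed by Cdc45 and the GINS complex, primase starts each strand, and the polymerases copy the template while held to it by the PCNA ring, which the RFC complex loads. Many genes of this machinery are transcribed together late in G1 under E2F transcription factors. In the heart of the rat, cardiomyocytes still divide before birth and largely leave the cell cycle soon after it. In bulk tissue, a change in the number of dividing cells and a change in the RNA of each cell cannot be told apart.

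Promoters were compared first, since the E2F motif is what many of these genes are known to share. Promoter sequences of 300 bases, 250 before and 50 after the annotated start, were taken from RefSeq for build GRCr8 and matched 35 of the 41 genes. The genes without an entry were Cdc6, Gins4, Mcm4, Orc1, Rpa3 and Rrm2. A match was any of the 4 forms TTTCCCGC, TTTCGCGC, TTTGCCGC and TTTGGCGC on either strand. Of the 35 promoters 17 held one (48.6%), against 2.14% of all 33469 promoters and 3.83% of the 12485 promoters of tested genes. There were 26 matches in all, counting overlapping ones separately, and 8 promoters held 2 or more. In 14 genes a match began no more than 50 bases before the start or after it. The CCAAT box, on either strand, was in 22 of the 35 promoters (62.9%), against 37.5% of all promoters and 36.8% of those of tested genes. The element TTTGAA, known from genes of late G2 and mitosis, was in 3 promoters (8.57%), against 18.3% of all and 12.1% of those of tested genes. Such a match is a string of letters and does not show that a factor binds there.

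**Figure D1:**
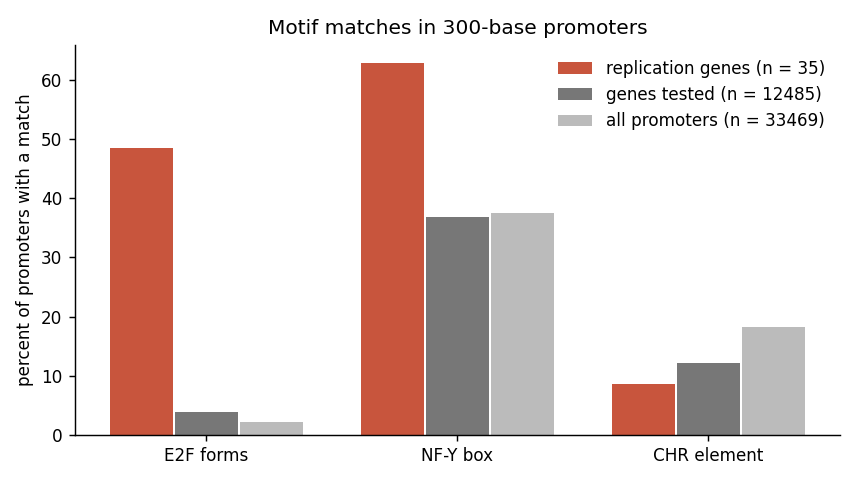
Percent of 300-base RefSeq promoters (vertical axis) that hold at least 1 E2F form, CCAAT box (labelled NF-Y box) or TTTGAA element (labelled CHR element), for the replication genes (n = 35), for genes tested (n = 12485) and for all promoters (n = 33469). The E2F forms were in 48.6% of the replication genes and in 2.14% of all promoters.

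Stretches of 90 bases are shown for the 5 genes of the MCM ring with several matches and for Rfc3, to show how the forms are placed, and for Rfc5, which had the largest change of all 41 genes and none of the forms. Each is on the strand of its gene, 5′ to 3′, and capitals mark the matches. Coordinates are those of GRCr8. The Mcm2 stretch lies at chr4:122918065-122918154 (- strand), Mcm3 at chr9:30733717-30733806 (- strand), Mcm5 at chr19:13488753-13488842 (+ strand), Mcm6 at chr13:42404439-42404528 (- strand) and Mcm7 at chr12:22163182-22163271 (- strand). The Rfc3 stretch lies at chr12:5836508-5836597 (+ strand) and Rfc5 at chr12:44868262-44868351 (+ strand).
Mcm2: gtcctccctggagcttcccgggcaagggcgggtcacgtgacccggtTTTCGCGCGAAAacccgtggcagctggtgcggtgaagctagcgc
Mcm3: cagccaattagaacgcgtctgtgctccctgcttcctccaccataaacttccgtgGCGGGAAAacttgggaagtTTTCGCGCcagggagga
Mcm5: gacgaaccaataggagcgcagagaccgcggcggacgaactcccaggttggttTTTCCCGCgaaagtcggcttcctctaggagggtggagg
Mcm6: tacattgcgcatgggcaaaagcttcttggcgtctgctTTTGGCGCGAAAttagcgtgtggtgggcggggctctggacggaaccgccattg
Mcm7: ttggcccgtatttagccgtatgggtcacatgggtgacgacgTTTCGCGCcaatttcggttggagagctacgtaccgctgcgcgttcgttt
Rfc3: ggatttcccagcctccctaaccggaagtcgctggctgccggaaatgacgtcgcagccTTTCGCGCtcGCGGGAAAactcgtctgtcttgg
Rfc5: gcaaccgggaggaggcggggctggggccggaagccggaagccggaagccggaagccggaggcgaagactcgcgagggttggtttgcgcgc
In Mcm2 and Mcm6 the capitals are 2 matches that overlap on opposite strands. With the start base counted as 0, the first match began at base -14 in Mcm2 and at base -139 in Mcm6. In Mcm3 and Rfc3 the 2 matches lie apart, at bases -6 and 13 in Mcm3 and at bases -3 and 7 in Rfc3. Mcm5 held a further overlapping pair from base -213 and Mcm7 a further match at base -233, outside the stretches shown.

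The libraries held 17639895 to 18240006 reads on genes in CON (median 18111199) and 16672876 to 19109844 in HG (median 17654802). The values are FPKM, reads divided by gene length and library size, so that a comparison of levels between genes depends on the gene lengths used. Beside the replication genes, 9 of 12 cardiomyocyte markers passed the test as lower in HG and their summed level was 31695 to 33071 FPKM in CON and 25513 to 28999 FPKM in HG, with 0 of the 12 at 0 in any library. With median-of-ratios factors and with quantile normalization, which are other ways of scaling libraries to each other, 10 and 5 of the 12 were lower. Of all genes tested, 17.5% and 15.9% were lower with these 2 scalings. Counts of the further markers are for the deposited scaling and moved by at most 2 genes under the others. With the deposited scaling 28.4% of all genes tested were higher and 11.8% lower, and the marker counts were not tested against these shares. Markers of red cell precursors summed to 9947 to 18740 FPKM in CON and 7892 to 11187 FPKM in HG, with 7 of 14 lower and 2 higher. The 2 higher were the globin genes Hbe1 and Hbz, with log2 fold changes of 2.24 and 4.07 and no overlap between the groups. Hbz was at 1.49 to 3.28 FPKM in CON and 30.4 to 80.4 FPKM in HG. Fibroblast markers summed to 1724 to 2010.3 FPKM in CON and 1556 to 1785 FPKM in HG, with 2 of 8 higher and 4 lower. Smooth muscle and pericyte markers summed to 762 to 885 FPKM in CON and 976 to 1228 FPKM in HG, with 3 of 6 higher and 1 lower. The summed levels of the groups thus did not overlap for cardiomyocytes and smooth muscle and overlapped for red cell precursors and fibroblasts. Endothelial markers summed to 273 to 297.5 and 280.0 to 309.9 FPKM (2 of 8 higher), macrophage markers to 29.0 to 36.0 and 33.5 to 44.0 FPKM (3 of 7 higher), and epicardial markers to 9.32 to 15.2 and 9.54 to 13.7 FPKM (0 of 4 called), in CON and HG. Lymphocyte markers stayed at or below 1.15 FPKM, with Cd3e at 0 in at least 1 library. Liver markers summed to 3.12 to 73.0 FPKM in CON, the highest in library 3, and at most 2.4 FPKM in HG, with 4 of 4 lower and Afp and Apoa1 at 0 in at least 1 library. The part of these cell markers in the results on replication genes was not tested.

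Of the 41 replication genes, 31 were higher in HG and 0 were lower, at a Benjamini-Hochberg adjusted p under 0.05 with limma on log2(FPKM + 0.1) over all genes tested. This is 75.6% of the list, and of all 14542 genes tested 28.4% were called higher and 11.8% lower. The estimate was above 0 for 40 of the 41 genes. The median log2 fold change of the list was 0.24, against 0.09 for all genes, and its values ran from -0.07 for Cdt1 to 0.61 for Rfc5, on the log2(FPKM + 0.1) scale. The shifts were thus small, and 0 of the 41 passed a threshold of an absolute log2 fold change of 1 with an adjusted p under 0.05, which 1.94% of all genes passed. At an unadjusted p under 0.05 in limma 32 genes were higher (34.3% of all genes) and 0 lower, and with voom on recovered reads 30 were higher (29.1% of all genes) and 0 lower after adjustment. In 16 of the 41 genes every HG library lay above every CON library, against 19.3% of all genes, and in 0 genes every HG library lay below. Other scalings of the libraries gave fewer. Median-of-ratios factors gave 12 higher (15.6% of all genes) and 6 without overlap (10.4% of all genes). Quantile normalization gave 19 higher (18.0% of all genes) and 9 without overlap (12.3% of all genes). Without CON library 3, where the liver markers stood out, 25 genes were higher in HG (24.9% of all genes). The summed level of the 41 genes was 1044 to 1124 FPKM in CON and 1205 to 1369 FPKM in HG.

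**Figure D2:**
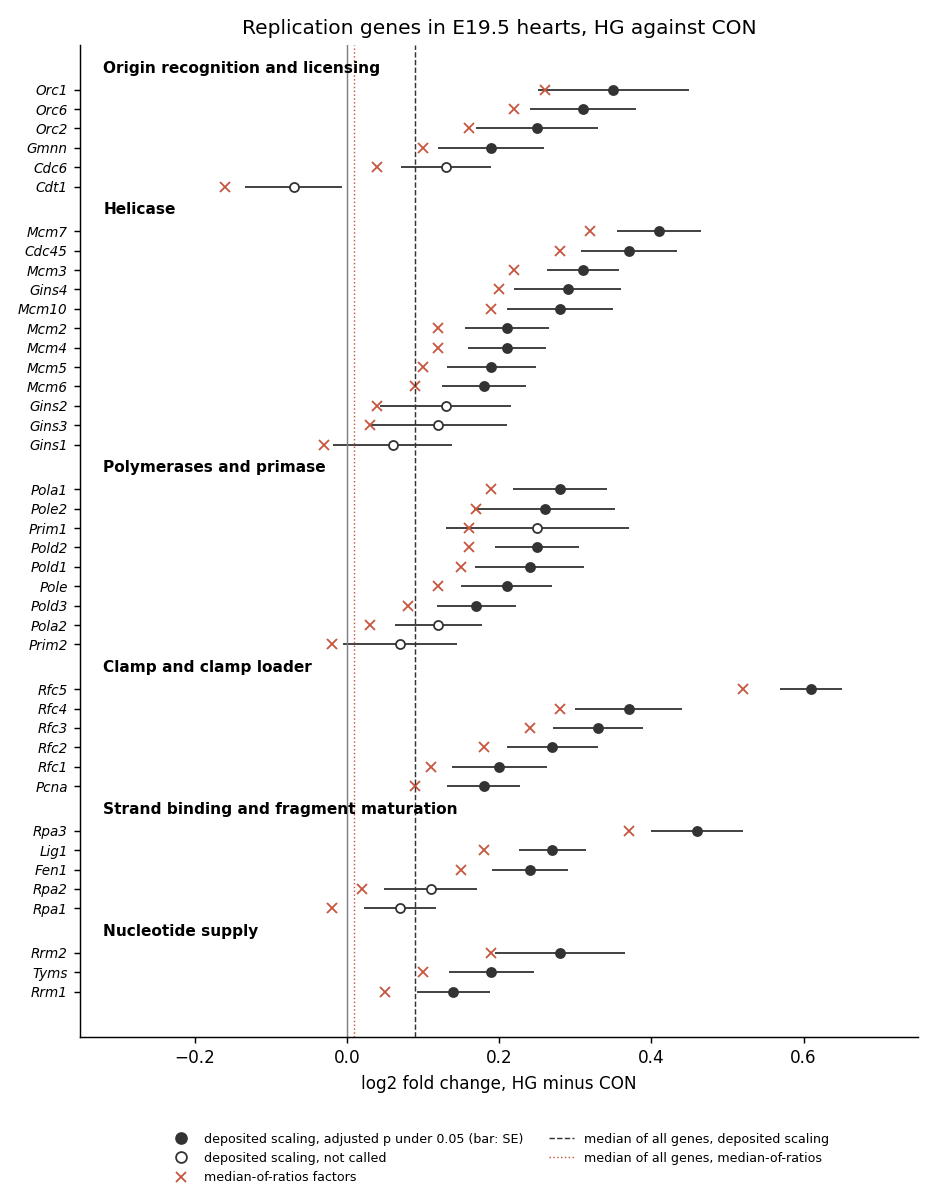
Log2 fold change, HG minus CON, of each of the 41 genes by role (horizontal axis), with SE bars for the deposited scaling and crosses for median-of-ratios factors. Filled points, 31 of 41, had an adjusted p under 0.05, and the median of all genes (vertical lines) was 0.09 for the deposited scaling and 0.01 for the other.

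Origin recognition and licensing had 4 of 6 genes higher in HG (28.4% of all genes). It had 1 of 6 with median-of-ratios factors or quantile normalization (15.6% and 18.0% of all genes). Counts by role, here and below, were not tested against these shares. Of the origin recognition complex, Orc1, the subunit that comes and goes with the cell cycle, was at 3.29, 3.90, 3.44, 3.80 and 4.23 FPKM in the CON libraries and 5.05, 3.96, 5.40, 5.23 and 4.31 FPKM in the HG libraries, in libraries 1 to 5 of each group. Its HG values exceeded all CON values in 4 of 5 libraries, HG library 2 lying within the CON range, and it rose from 3.73 ± 0.374 to 4.79 ± 0.621 FPKM (mean ± SD, n = 5, log2 fold change 0.35 ± 0.0988 (SE), adjusted p = 0.0146). Orc6, another subunit, was at 12.1, 13.0, 13.3, 14.3 and 14.3 FPKM in the CON libraries and 16.4, 14.3, 16.8, 18.3 and 17.5 FPKM in the HG libraries. HG library 2 was level with the highest CON libraries and the other 4 lay above them (log2 fold change 0.31 ± 0.0693 (SE), adjusted p = 0.00382). Orc2 rose as well (log2 fold change 0.25, adjusted p = 0.0258). The FPKM levels followed the order Orc1, Orc2 and Orc6, with group means of 3.73, 8.56 and 13.4 in CON, and the ranges of neighbours did not overlap in CON. The reads did not follow it, at 181 to 293, 470 to 671 and 315 to 466 in a library.

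The loading factors did not pass the test. Cdt1, which brings the MCM helicase to the origin, was at 20.6, 21.3, 20.0, 23.4 and 22.3 FPKM in the CON libraries and 22.4, 21.8, 20.6, 20.2 and 17.8 FPKM in the HG libraries. The groups overlapped widely, HG library 5 was lowest, and the log2 fold change was -0.07, adjusted p = 0.426. Cdc6, its partner, did not pass either (log2 fold change 0.13, adjusted p = 0.0989). Gmnn codes for geminin, the protein that binds Cdt1 and blocks a second round of licensing, and was at 24.7, 23.7, 20.7, 24.1 and 23.5 FPKM in the CON libraries and 27.6, 22.8, 26.2, 30.1 and 26.3 FPKM in the HG libraries. It was above every CON library in 4 of 5 HG libraries and passed only just (log2 fold change 0.19 ± 0.0696 (SE), adjusted p = 0.0496), in 5 of the 21 ways of processing the values. The ratio of Cdt1 to Gmnn, which does not depend on how libraries are scaled, was 0.833, 0.899, 0.968, 0.972 and 0.949 in CON and 0.809, 0.954, 0.785, 0.672 and 0.678 in HG. HG library 2 was within the CON range and the other 4 lay below it. The ratio averaged 0.924 ± 0.0585 over the CON libraries and 0.78 ± 0.115 over the HG libraries (SD, n = 5), a log2 difference of -0.26 that did not pass (two-sided exact permutation test, p = 0.0397, adjusted p = 0.159 over the 4 ratios tested). The smallest p that 5 against 5 libraries can give is 0.00794. Without HG library 2 the difference was -0.33 with an adjusted p of 0.0317. This left out the only HG library within the CON range, so that no overlap remained, and it does not change the reading. With each library left out in turn, the adjusted p of this test ran from 0.0317 to 0.317.

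The helicase genes were higher in 9 of 12 cases, and in 5 of them the groups did not overlap (28.4% and 19.3% of all genes). With median-of-ratios factors 4 were higher and 2 did not overlap (15.6% and 10.4% of all genes). With quantile normalization the counts were 7 and 3 (18.0% and 12.3% of all genes). Mcm7 (NCBI Gene 288532), a subunit of the MCM ring, was at 45.5, 42.8, 43.5, 49.7 and 46.3 FPKM in the CON libraries and 63.4, 60.0, 60.0, 65.2 and 53.8 FPKM in the HG libraries. Every HG library lay above every CON library, and the gene rose from 45.6 ± 2.70 to 60.5 ± 4.34 FPKM (log2 fold change 0.41 ± 0.0554 (SE), adjusted p = 0.00015). Mcm3, its fellow subunit, was at 31.4, 31.1, 33.5, 34.5 and 34.5 FPKM in the CON libraries and 42.0, 40.3, 40.2, 44.5 and 38.3 FPKM in the HG libraries. Again no library overlapped (log2 fold change 0.31 ± 0.0476 (SE), adjusted p = 0.000318). The other subunits of the ring also rose, with log2 fold changes of 0.21 for Mcm2, 0.21 for Mcm4, 0.19 for Mcm5 and 0.18 for Mcm6 and adjusted p of 0.00874, 0.0059, 0.0198 and 0.0196. The 6 ring subunits, which the complex holds in equal number, had CON means between 33.0 FPKM for Mcm3 and 60.7 FPKM for Mcm6. Mcm10, which acts when the loaded helicase is switched on, was lower in FPKM, at 4.56 on average in CON and 5.56 in HG, with 624 to 933 reads in a library. It rose as well (log2 fold change 0.28, adjusted p = 0.00737).

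Cdc45, the factor that joins the MCM ring to make it an active helicase, was at 14.9, 14.8, 14.3, 15.6 and 15.8 FPKM in the CON libraries and 20.2, 17.2, 20.4, 21.8 and 18.0 FPKM in the HG libraries. No HG library came down to the CON range, and the gene rose from 15.1 ± 0.62 to 19.5 ± 1.86 FPKM (log2 fold change 0.37 ± 0.063 (SE), adjusted p = 0.000742). Of the 4 genes of the GINS complex, the other partner of the ring, Gins4 passed the test. Gins4 was at 12.9, 16.1, 14.6, 14.1 and 17.0 FPKM in the CON libraries and 18.5, 16.6, 18.9, 18.9 and 18.2 FPKM in the HG libraries. It rose (log2 fold change 0.29 ± 0.0705 (SE), adjusted p = 0.00617), with HG library 2 within the CON range. Gins1 was at 18.4, 20.7, 19.4, 22.3 and 22.7 FPKM in the CON libraries and 19.6, 19.8, 21.5, 25.5 and 21.7 FPKM in the HG libraries. Its groups overlapped in all but 1 HG library, library 4, and its adjusted p of 0.564 was the highest of the 41 genes, with a log2 fold change of 0.06, which was -0.03 with median-of-ratios factors. Gins2 and Gins3 did not pass either, at 0.13, adjusted p = 0.26 and 0.12, adjusted p = 0.325. In CON the mean levels were 20.7 FPKM for Gins1, 14.9 for Gins4, 6.80 for Gins3 and 3.13 for Gins2. Over all libraries their reads differed less, at 342 to 463, 266 to 402, 232 to 365 and 219 to 305 in the same order. The FPKM gaps between these genes thus rest largely on the gene lengths used. The complex holds 1 copy of each protein.

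Of the polymerase and primase genes 6 of 9 were higher in HG, and in 4 the groups did not overlap (28.4% and 19.3% of all genes). Under median-of-ratios factors 1 was higher and under quantile normalization 2 (15.6% and 18.0% of all genes). In either, 0 were without overlap (10.4% and 12.3% of all genes). Pola1, the catalytic subunit of the polymerase that extends primers, was at 7.87, 8.83, 8.42, 8.41 and 8.59 FPKM in the CON libraries and 10.5, 9.00, 10.2, 11.3 and 10.3 FPKM in the HG libraries. All HG libraries exceeded all CON libraries, by little in HG library 2 (log2 fold change 0.28 ± 0.0611 (SE), adjusted p = 0.00335). Its partner Pola2 did not pass (log2 fold change 0.12, adjusted p = 0.117). Prim1, the catalytic subunit of primase, was at 49.0, 39.2, 36.7, 40.1 and 40.5 FPKM in the CON libraries and 47.6, 38.4, 64.4, 53.7 and 43.4 FPKM in the HG libraries. HG library 3 was the highest and CON library 1 lay above 3 of the HG libraries, and the gene did not pass (log2 fold change 0.25, adjusted p = 0.116), with the largest relative spread of the list in HG, a coefficient of variation of 20.3%. Prim2, the other primase subunit, was at 7.56, 6.50, 6.36, 7.47 and 6.06 FPKM in the CON libraries and 6.46, 7.16, 7.16, 7.86 and 6.94 FPKM in the HG libraries. Its groups overlapped (0.07, adjusted p = 0.493), and the estimate was -0.02 with median-of-ratios factors. The ratio of Prim1 to Pola1 averaged 4.9 ± 0.76 over the CON libraries and 4.81 ± 0.871 over the HG libraries (SD, n = 5), a log2 difference of -0.03 (exact permutation test, p = 0.706, adjusted p = 0.714).

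Pold1, the catalytic subunit of the polymerase that makes the lagging strand, was at 14.7, 15.7, 16.3, 19.2 and 18.1 FPKM in the CON libraries and 21.6, 19.2, 20.3, 19.6 and 18.5 FPKM in the HG libraries. HG library 2 was level with the highest CON library, library 4, to 3 digits, and HG library 5 lay below it, and the gene rose (log2 fold change 0.24 ± 0.0715 (SE), adjusted p = 0.018). Pole, the catalytic subunit of the leading strand polymerase, was at 9.27, 9.39, 8.42, 9.95 and 10.1 FPKM in the CON libraries and 11.5, 10.1, 10.6, 11.5 and 10.9 FPKM in the HG libraries. The groups did not overlap before rounding, HG library 2 lying next to CON library 5 (log2 fold change 0.21 ± 0.0599 (SE), adjusted p = 0.0138). The accessory subunits rose as well, with log2 fold changes of 0.25 for Pold2, 0.17 for Pold3 and 0.26 for Pole2 and adjusted p of 0.00335, 0.0201 and 0.0414. The ratio of Pold1 to Pole averaged 1.79 ± 0.157 over the CON libraries and 1.82 ± 0.115 over the HG libraries (SD, n = 5), a log2 difference of 0.03 (exact permutation test, p = 0.714, adjusted p = 0.714).

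The clamp and its loader were higher in HG in 6 of 6 genes, 4 of them without overlap, and held the largest change of the list. Of all genes 28.4% were higher and 19.3% higher without overlap. The counts were 4 higher and 1 without overlap with median-of-ratios factors (15.6% and 10.4% of all genes). They were 5 and 3 with quantile normalization (18.0% and 12.3% of all genes). Rfc5 (NCBI Gene 304528), a subunit of the clamp loader, was at 17.9, 18.3, 17.2, 16.8 and 18.4 FPKM in the CON libraries and 26.6, 26.2, 26.3, 28.0 and 28.0 FPKM in the HG libraries. The lowest HG library lay above the highest CON library, and the gene rose from 17.7 ± 0.696 to 27.0 ± 0.925 FPKM (SD, n = 5), 1.53-fold in the means (log2 fold change 0.61 ± 0.0406 (SE), adjusted p = 1.2e-06). Rfc4 was at 21.5, 22.9, 19.5, 19.2 and 20.4 FPKM in the CON libraries and 25.0, 23.6, 27.2, 28.7 and 30.0 FPKM in the HG libraries. The groups did not overlap, CON library 2 and HG library 2 lying closest (log2 fold change 0.37 ± 0.0706 (SE), adjusted p = 0.00131). Rfc3 was at 25.4, 26.9, 23.7, 26.4 and 30.1 FPKM in the CON libraries and 34.3, 35.1, 33.0, 33.5 and 30.8 FPKM in the HG libraries. CON library 5 came near the lowest HG library and none crossed (log2 fold change 0.33 ± 0.0592 (SE), adjusted p = 0.000919). Rfc2 rose without overlap (log2 fold change 0.27, adjusted p = 0.00357). Rfc1, the large subunit, also rose (0.20, adjusted p = 0.025), and so did Pcna, the clamp itself (0.18, adjusted p = 0.0109). Pcna had the highest level of the 41 genes, with 138 ± 5.98 in CON and 156 ± 10.3 FPKM over the HG libraries (SD, n = 5), and the 5 loader genes had CON means between 11.7 FPKM for Rfc1 and 26.5 FPKM for Rfc3.

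**Figure D3:**
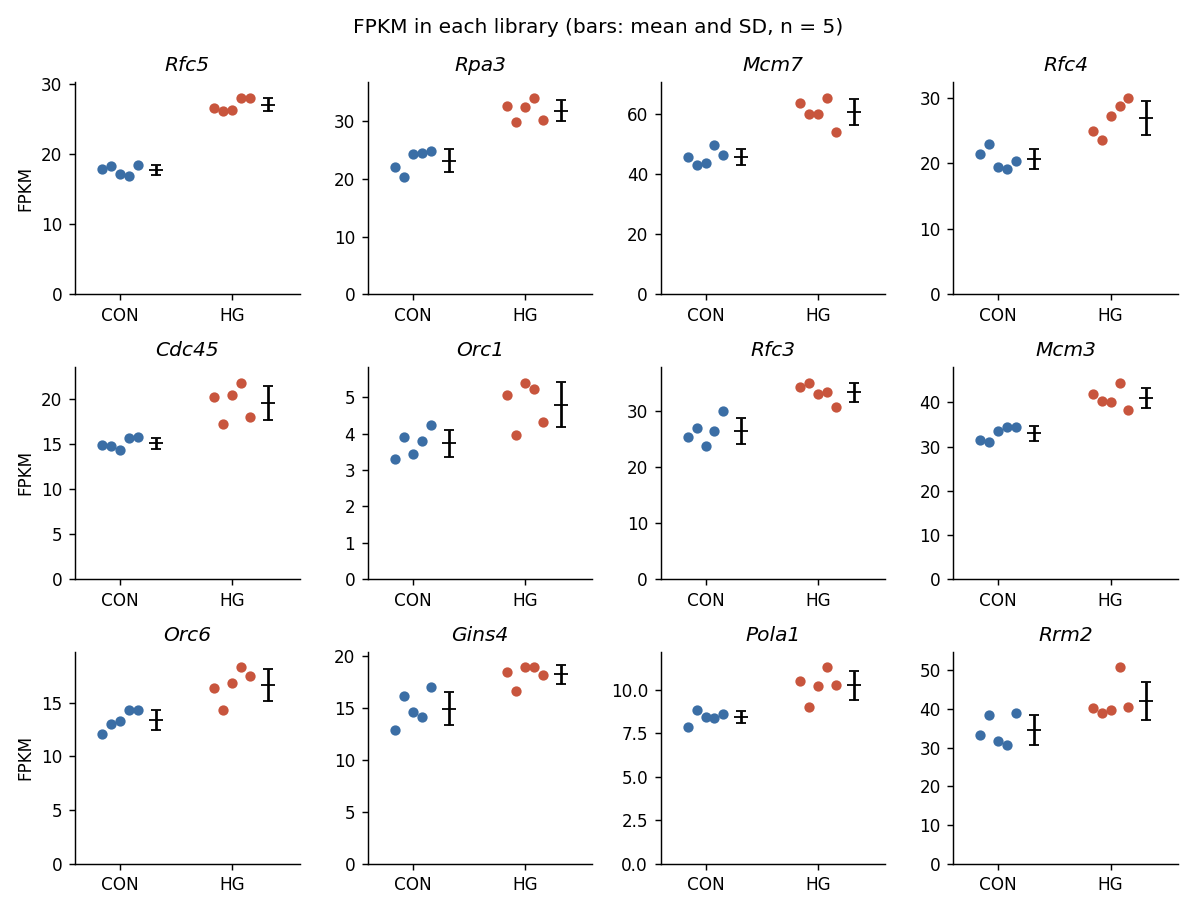
FPKM of the 12 genes with the largest log2 fold change among those called, 1 point a library in library order, with mean and SD at the right of each group (n = 5). Rfc5 was 16.8 to 18.4 FPKM in CON and 26.2 to 28.0 FPKM in HG, whereas Rrm2 overlapped between the groups.

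The genes of single strand binding and fragment joining were higher in 3 of 5 cases, all 3 without overlap (28.4% and 19.3% of all genes). With median-of-ratios factors 2 were higher and with quantile normalization 3 (15.6% and 18.0% of all genes). In both, 3 were without overlap (10.4% and 12.3% of all genes). RPA, a complex of 3 proteins, covers the unwound strand. Rpa3 (NCBI Gene 296883), its smallest subunit, was at 22.1, 20.3, 24.4, 24.5 and 24.8 FPKM in the CON libraries and 32.7, 29.9, 32.6, 34.1 and 30.2 FPKM in the HG libraries. Every HG library lay above the CON range, and the gene rose from 23.2 ± 1.95 to 31.9 ± 1.79 FPKM (log2 fold change 0.46 ± 0.0608 (SE), adjusted p = 0.000127). The other subunits did not pass, with log2 fold changes of 0.07, adjusted p = 0.23 for Rpa1, whose estimate was -0.02 with median-of-ratios factors, and 0.11, adjusted p = 0.163 for Rpa2. Fen1, the nuclease that trims Okazaki fragments, and Lig1, the ligase that seals them, both rose without overlap, at 0.24, adjusted p = 0.00272 and 0.27, adjusted p = 0.000552.

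The genes of nucleotide supply were higher in 3 of 3 cases, and in 0 of them without overlap (28.4% and 19.3% of all genes). The count of higher genes fell to 0 of 3 with median-of-ratios factors (15.6% of all genes). With quantile normalization it fell to 1 of 3 (18.0% of all genes). Rrm2, the subunit that limits ribonucleotide reductase in S phase, was at 33.2, 38.5, 31.8, 30.8 and 39.1 FPKM in the CON libraries and 40.4, 39.0, 39.7, 50.8 and 40.6 FPKM in the HG libraries. CON library 5 lay just above HG library 2, the lowest of its group, and HG library 4 stood above the rest (log2 fold change 0.28 ± 0.085 (SE), adjusted p = 0.0203). Rrm1, the large subunit, was at 102, 95.1, 92.6, 96.0 and 99.4 FPKM in the CON libraries and 107, 100.4, 103, 119.6 and 105 FPKM in the HG libraries. HG library 2 lay below the highest CON library and the rise was the smallest of the called genes (log2 fold change 0.14 ± 0.0475 (SE), adjusted p = 0.0348). Tyms, which makes thymidylate, rose as well (log2 fold change 0.19, adjusted p = 0.0154). The ratio of Rrm2 to Rrm1 averaged 0.358 ± 0.0383 over the CON libraries and 0.393 ± 0.0184 over the HG libraries (SD, n = 5), a log2 difference of 0.14 that did not pass (exact permutation test, p = 0.119, adjusted p = 0.238).

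Libraries of a group differed in level over many of the genes. In HG, library 4 held the group's highest value for 24 of the 41 genes and library 2 the lowest for 26, and in CON library 5 held the highest for 21 and library 3 the lowest for 13. The coefficient of variation over the libraries of a group had a median of 6.69% in CON and 7.08% in HG. To set the shift of the list as a whole aside, each gene's log2 level was taken relative to the median of the 41 genes in its own library, which apart from the pseudocount does not depend on the scaling of the libraries. On this scale 35 genes overlapped between the groups. In 3 genes every HG library was higher, Rfc5 (difference of means 0.39), Rpa3 (0.24) and Cdc45 (0.14), and in 3 every HG library was lower, Cdt1 (-0.29), Rpa1 (-0.15) and Rrm1 (-0.08). Relative to the median gene, Rfc5 went from -0.25 to -0.14 in CON to 0.10 to 0.32 in HG, and Cdt1 from 0.04 to 0.23 in CON to -0.37 to -0.00 in HG. These are descriptions without a test. The share of all genes without overlap on this scale was not computed, so that the counts of 3 and 3 cannot be set against it.

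**Figure D4:**
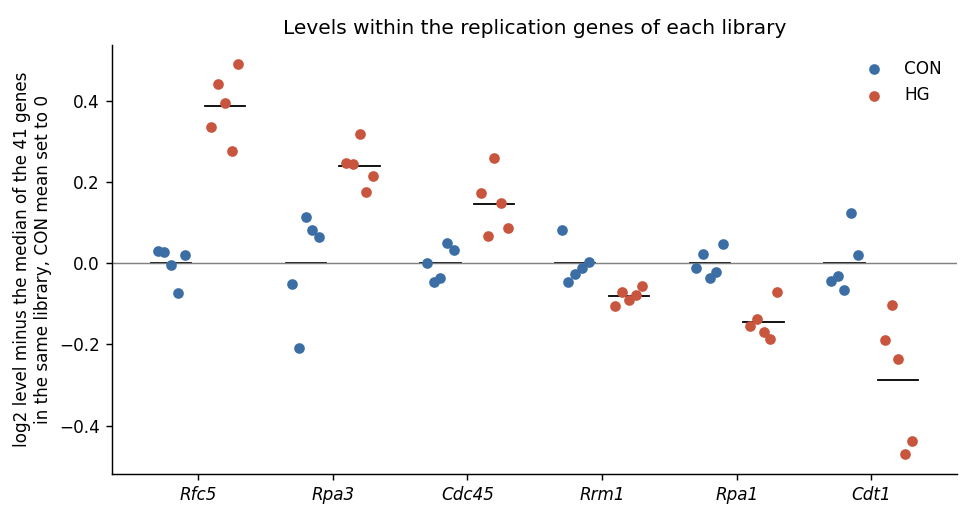
Log2 level minus the median of the 41 genes in the same library (vertical axis), with the CON mean of each gene set to 0, for the 6 genes whose groups did not overlap on this scale. Each point is a library and lines are group means, which differed by 0.39 for Rfc5 and by -0.29 for Cdt1.

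How many genes were called depended on how libraries were scaled to each other. Median-of-ratios factors, which centre the ratios of all genes and not the read total, were 0.964 to 0.972 in CON and 1.01 to 1.06 in HG. They moved the median log2 fold change of all genes from 0.09 to 0.01 and that of the 41 genes from 0.24 to 0.15. With them 12 of the 41 genes were higher (15.6% of all genes) and 0 lower, and 6 did not overlap (10.4% of all genes). With quantile normalization 19 were higher (18.0% of all genes) and 0 lower, and 9 did not overlap (12.3% of all genes). Of all genes 17.5% were lower with median-of-ratios factors and 15.9% with quantile normalization. Of all called genes 70.7% were higher with the deposited scaling, 47.1% with median-of-ratios factors and 53.0% with quantile normalization. The genes called in all 21 ways of processing were 12: Orc6, the helicase genes Mcm3, Mcm7, Cdc45 and Gins4, the clamp loader genes Rfc2, Rfc3, Rfc4 and Rfc5, Pola1, Rpa3 and Lig1. With these 2 scalings set aside, 23 of the 31 were called in all other ways.

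**Figure D5:**
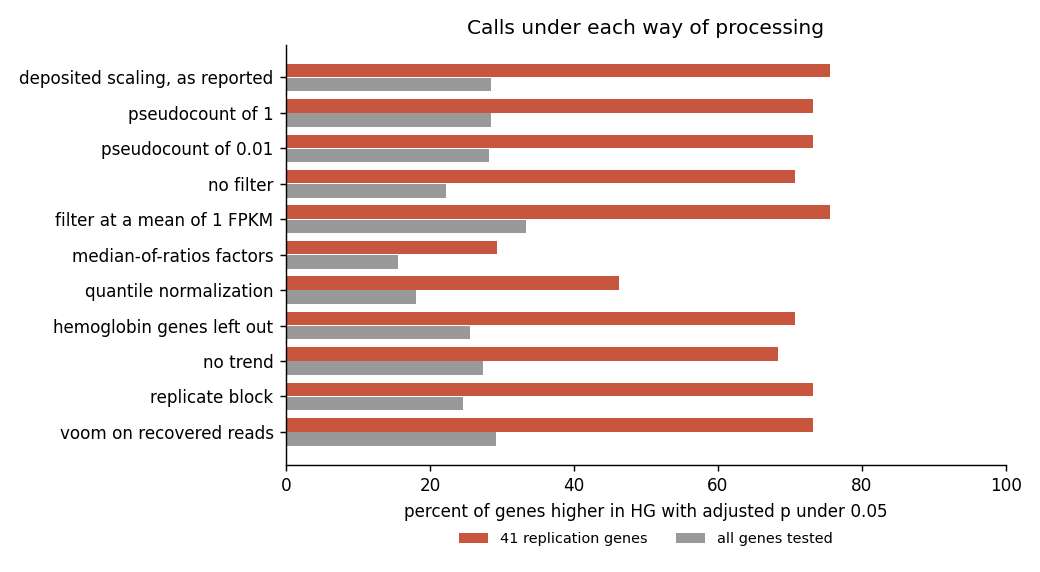
Percent of genes higher in HG with an adjusted p under 0.05 (horizontal axis), for the 41 replication genes and for all genes tested, under the deposited scaling and 10 other ways of processing that keep all libraries. Both shares were lowest with median-of-ratios factors, where 12 of the 41 genes and 15.6% of all genes were called.

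Further genes of replication were held against the 41. Of 50 others, which cover firing factors, fork protection, chromatin assembly and nucleotide supply, 48 were tested, 36 were higher and 1 was lower, with a median log2 fold change of 0.30. For all genes the shares were 28.4% higher and 11.8% lower, with a median of 0.09. Dna2 was not analysed here and Chtf8 was below the filter. Among those that rose were Tipin, a fork protection factor (log2 fold change 0.62, adjusted p = 2.61e-05), Dbf4, the activating partner of the Cdc7 kinase that fires origins (0.51, adjusted p = 1.85e-05), and Mtbp, which acts in origin firing (0.46, adjusted p = 0.0019). The gene that fell was Pole4, a small accessory subunit of the leading strand polymerase, by 0.23 on the log2 scale (adjusted p = 0.00356). With median-of-ratios factors 27 of the 48 were higher and 2 lower (15.6% and 17.5% of all genes). With quantile normalization the counts were 25 and 2 (18.0% and 15.9% of all genes).

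Of 33 regulators of entry into S phase, 22 were higher and 1 was lower, with a median of 0.22. For all genes the shares were 28.4% higher and 11.8% lower, with a median of 0.09. Mycn, a transcription factor of growth (log2 fold change 0.66, adjusted p = 6.6e-05), Ccna2, the cyclin of S phase and G2 (0.56, adjusted p = 2.95e-06), Skp2, which marks cell cycle inhibitors for destruction (0.52, adjusted p = 1.8e-05), and Cdkn1c, itself an inhibitor of cyclin-dependent kinases (0.43, adjusted p = 0.000598), rose most. E2f6, a member of the E2F family, fell by 0.20 (adjusted p = 0.00235). Others of the family rose: E2f3 by 0.37, E2f4 by 0.19, E2f5 by 0.40, E2f7 by 0.40 and E2f8 by 0.23. Their adjusted p were 0.00369, 0.0219, 0.00267, 0.000908 and 0.0192. E2f4 and E2f8 did not pass with median-of-ratios factors (adjusted p = 0.185 and 0.134) or quantile normalization (0.0989 and 0.144). E2f3, E2f5 and E2f7 passed under both. E2f1 (0.03, adjusted p = 0.71) and E2f2 (0.07, adjusted p = 0.493) did not pass. With median-of-ratios factors 15 of the 33 were higher and 1 lower (15.6% and 17.5% of all genes). With quantile normalization the counts were 16 and 1 (18.0% and 15.9% of all genes).

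Markers of mitosis and proliferation were higher in 24 of 24 cases, all without overlap, at a median log2 fold change of 0.44. For all genes the shares were 28.4% higher and 19.3% without overlap, with a median of 0.09. Under both other scalings 24 of 24 were called higher and 22 did not overlap. For all genes these shares were 15.6% and 10.4% with median-of-ratios factors and 18.0% and 12.3% with quantile normalization. Cenpa, the centromeric histone (0.84, adjusted p = 1.54e-05), Plk1, a mitotic kinase (0.60, adjusted p = 9.52e-06), Ccnb1, the mitotic cyclin (0.59, adjusted p = 1.2e-06), and Birc5, a part of the chromosomal passenger complex (0.56, adjusted p = 2.47e-06), rose most, and Top2a and Mki67 had log2 fold changes of 0.44 and 0.24 (adjusted p = 6.45e-05 and 0.00169). Within a library, the median log2 level of the 24 markers lay above that of the 41 replication genes by 0.57, 0.58, 0.46, 0.57 and 0.45 in CON and by 0.72, 0.75, 0.80, 0.77 and 0.88 in HG. The gap was wider in every HG library than in any CON library, with means of 0.53 ± 0.0676 and 0.78 ± 0.0621 (SD, n = 5 each), and apart from the pseudocount it does not depend on the scaling. It was not tested, since the genes were listed with results of these data known.

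Genes with an E2F form in the promoter did not have the larger median shift. The 17 genes with a form had a median log2 fold change of 0.19 (range -0.07 to 0.41) and 13 of them were higher, and the 18 without one had a median of 0.24 (range 0.07 to 0.61) and 13 were higher. Rfc5 and Cdc45 held none of the 4 forms, and Cdt1 and Gins1, which did not pass, held 2 matches each. Those of Gins1 overlap on opposite strands. Only exact matches were counted, so that a gene without one may still hold a site of another form. The Cdc45 and Mcm10 promoters, for example, held a stretch that differs from TTTGGCGC only in its last base. This comparison is a description, made on 35 promoters of a build other than the one the reads were counted on.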

How the data were processed

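Stranded mRNA libraries of 5 CON and 5 HG hearts were compared. The authors deposited FPKM per gene. The submitters' processing notes name fastp, HISAT2, HTSeq, R 3.2.0 and the build mRatBN7.2, and the strand setting of the counting is not given in the sources used here, so reads of a gene and of one overlapping it on the other strand cannot be told apart. FPKM values were whole multiples of 1 read in 100% of genes, taken as within 0.08 of a read, so reads were recovered (0 columns were left unused).

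The 14542 of 18025 genes that averaged 0.1 FPKM or more were tested on log2(FPKM + 0.1) in limma 3.58.1 (moderated linear model with a trend, no covariate, Benjamini-Hochberg over all genes) under R 4.3.3. Ratios were compared with exact permutation tests. Python 3.11.15, pandas 2.3.3, numpy 2.4.6 and matplotlib 3.10.9 were used. The fit and the recovery were tested on simulated data. At an absolute log2 fold change of 0.3 the fit called 12 of 100 changed genes, and at 1.5 it called 92 of 98. In that run 8 unchanged genes were called, and 0 genes were called where none was changed. The simulated spread was not fitted to these data, so that these shares need not hold for them. The members and lists were chosen with earlier results of these data known. Every member is named, with all libraries for the 12 called genes with the largest change, the 3 with the highest adjusted p and the genes of the 4 ratios, and of each other list the 4 called genes with the largest change, with Mki67 and Top2a, of which 1 gene is not reported here. Pole4 and E2f6, the only genes lower in their lists, were named after their values were seen. So were the other E2F genes, Hbe1 and Hbz. Alternatives were 2 pseudocounts (1 and 0.01), omission of the filter or its setting at a mean of 1 FPKM, 2 scalings, hemoglobin genes left out, no trend, a replicate block, voom on recovered reads and each of the 10 libraries left out.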

Additional observations from a re-analysis of the deposited data

Results flagged for a closer look

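In groups of 5 libraries, a library was picked out where its gap to the nearest other exceeded 0.71 of the range of the group, which chance gives in about 1 of 20 groups. Of 90 groups of values, 5 were picked out. Pola2 was 13.4 FPKM in HG library 2 and 14.4 to 14.7 FPKM in the other 4. Rrm2 was 50.8 FPKM in HG library 4 and 39.0 to 40.6 FPKM in the others, and the ratio of Rrm2 to Rrm1 was 0.425 in that library and 0.378 to 0.389 in the others. The ratio of Prim1 to Pola1 was 6.23 in CON library 1 and 4.36 to 4.76 in the other CON libraries, and 6.32 in HG library 3 and 4.20 to 4.75 in the other HG libraries. The cause was not tested.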

How the results depend on the processing

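With median-of-ratios factors 12 members were called higher, 6 did not overlap and the median log2 fold change was 0.15; with quantile normalization 19 were called higher and 9 did not overlap. The estimate changed sign in both scalings for Gins1 (-0.03 and -0.01) and Prim2 (-0.02 and -0.02), and with median-of-ratios factors for Rpa1 (-0.02), none of which was called. The cause was not tested. The other settings that keep all libraries called 28 to 31 members higher, with 22.2% to 33.3% of all genes called higher. Leaving out a library called 25 (without CON replicate 3) to 33 (without HG replicate 2), with 24.4% to 27.6% of all genes. With a library left out, 16 to 24 members did not overlap, 24 without HG replicate 2, against 2939 to 3300 of all genes tested. Gins1 ran from -0.00 (without HG replicate 4) to 0.10. The log2 difference of Cdt1 over Gmnn ran from -0.33 to -0.20, Prim1 over Pola1 from -0.13 to 0.06 and Pold1 over Pole from -0.02 to 0.06, the adjusted p being 0.0317 to 0.317 for the first and at least 0.37 and 0.556 for the others.

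With the replicate block 30 members were called higher (24.5% of all genes), 16 did not overlap (19.3% of all genes) and the median was 0.24. The adjusted p of the ratios, from flips of the signs of the 5 pairs, was 0.5 to 0.812, where 5 pairs allow no p below 0.0625. Libraries with the same number did not deviate together (correlations -0.126 to 0.108), so that no pairing by number was seen. Low correlations cannot exclude that such libraries were collected or handled together. Members had 181 to 6358 reads in a library, the fewest in Orc1, so that counting error is largest there.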
